A study of Mus musculus with 8 samples.

Results

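CLIP peaks for the RNA-binding protein Zmat3 were examined where they fell at the 3′ ends of protein-coding genes. The peaks were chosen by 3 properties that the deposited peak lists gave, namely being called, strand and position. A gene entered if it was autosomal and protein-coding, had 10 or more called peaks over the 4 lists against input, and spanned at least 10 kb. Its strand was taken as the strand with most called peaks. Every called peak on that strand with its midpoint in the last 1000 nt of the span was a member. The rule found 34850 peaks of 978429 in the 7 lists, in 4377 of 6340 eligible genes (69.0%). The last 1000 nt stand in for the 3′ untranslated region (UTR), because exon annotation was not used here and the true UTR may be shorter or longer. The size of the log2 fold was not part of the rule, and the lists also contain peaks with negative folds. Differences between 3′ end peaks and other peaks are nevertheless given as descriptions without a test.

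The data came from mouse embryonic fibroblasts (MEFs) transformed by retroviruses carrying the adenoviral oncogene E1A and oncogenic Hras. The 3 control lines had the genotype Cas9+;E1A;HrasG12V and carried the negative control sgRNAs EV (control 1), SPA (control 2) and ACOCA (control 3), with puromycin selection for 3 days and 10 further days of culture. The knockout was 1 line of genotype Zmat3-/-;E1A;HrasG12V with no sgRNA, so the loss of Zmat3 cannot be told apart from the absence of Cas9 and sgRNA or from the line itself. From each line, RNA crosslinked to protein by UV was immunoprecipitated (IP) with an anti-Zmat3 antibody and sequenced beside its input. Of the 7 lists, 4 set an IP against input and 3 set a control IP against the knockout IP. The lists over the knockout IP share that 1 library and cover nearly the same peaks as the lists over input of the same control. Read depth was unknown, since the lists give no counts, so no counting interval was computed.

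The 3′ UTR is the stretch of an mRNA between the stop codon and the poly(A) tail. MicroRNAs and RNA-binding proteins that act there set how long an mRNA lasts and how much of it is translated. Zmat3, also called Wig-1, is a zinc finger protein whose gene is switched on by p53. It is known from human cells for binding AU-rich sequence in 3′ UTRs, and also for binding introns and changing splicing. CLIP recovers the short RNA stretches that lie against the protein, and in a knockout the same antibody shows what is recovered without it.

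One 3′ end held a microRNA. The hairpin of Mir21a lies on chromosome 11 at 86584067–86584158 on the minus strand (GRCm38.p6, RefSeq), inside the last 1000 nt of Vmp1, which encodes a membrane protein of autophagy. Its mature arms, credited to RefSeq, are shown because peaks in all 4 IPs overlapped them in whole or in part, as described below. Capitals mark the seed, which pairs with target mRNAs, and the arms have different seeds.
mmu-miR-21a-5p: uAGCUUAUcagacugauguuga
mmu-miR-21a-3p: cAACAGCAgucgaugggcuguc
The 5p arm lies at 86584120–86584141 and the 3p arm at 86584082–86584103.

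Zmat3 itself was the gene removed in the knockout. At its 3′ end (gene span on chromosome 3, 32334792–32365665, minus strand), 3, 5 and 2 peaks were called in controls 1 to 3 and 4 in the knockout. RNA from the 3′ end of the gene was thus still recovered in the knockout line, and these peaks say nothing about the protein. The median log2 folds over input at the Zmat3 3′ end were 0.64, 0.60 and 0.60 in the controls and 0.98 in the knockout. Over the knockout IP they were −1.21, −0.96 and −1.63, whereas the inner Zmat3 peaks, more than 1000 nt from either end, had medians of 2.60, 3.47 and 2.17. Values below the knockout IP were not particular to the Zmat3 3′ end. Between 1000 and 5000 nt the medians were −0.95, −0.49 and −1.04, and between 5000 and 10000 nt −1.01, −0.15 and −1.47. That last stretch was mixed. In it every control peak up to 6872 nt was below 0, and every one from 8152 nt on was above 0. The knockout had no called peak between 8054 and 28468 nt. Between 10000 and 20000 nt from the 3′ end, 11, 12 and 10 peaks were called in the controls and 0 in the knockout, and every control peak there was above the knockout IP, the lowest being 1.92, 2.76 and 1.90. The difference between 3′ end and inner median in Zmat3 averaged −4.01 ± 0.36 (SD, n = 3 controls). It was the lowest of the 1329 genes with a 3′ end peak and at least 5 inner peaks in all 3 of these lists, whose median was −0.31. The next lowest genes were Sarnp at −2.002 ± 0.54 and Ptk2 at −1.99 ± 0.44, with Znrf3 between them. That ranking was made after the values were seen.

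**Figure D1:**
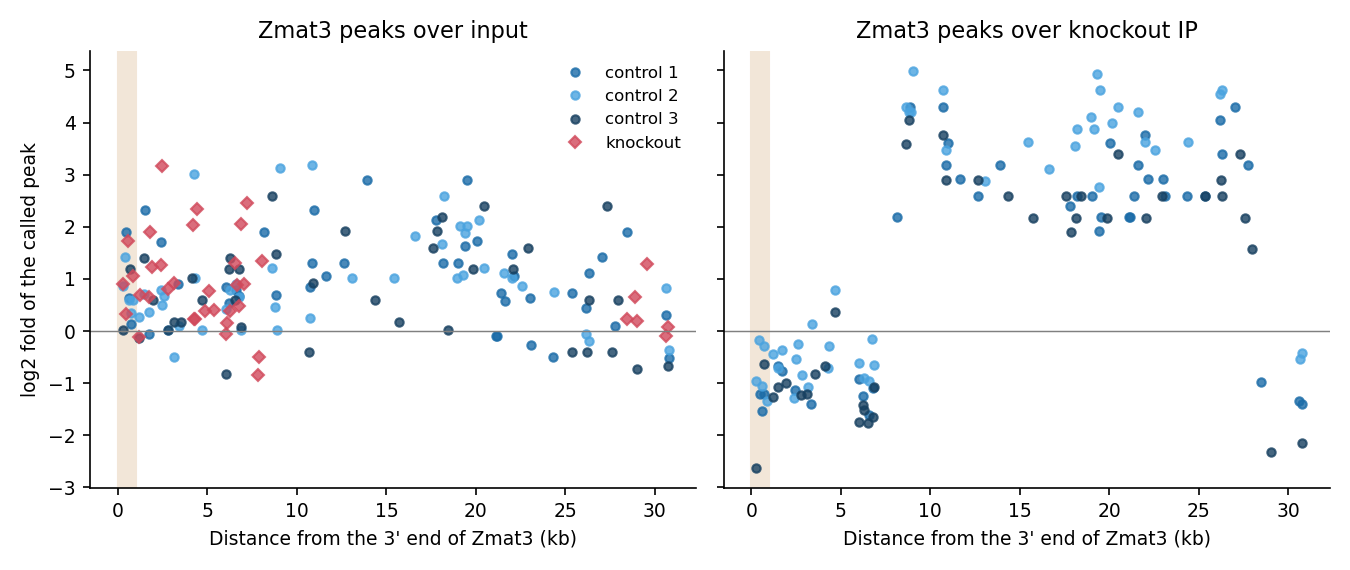
Called peaks along Zmat3 by distance from the 3′ end of the gene in kb (x axis) and log2 fold (y axis), over input on the left and over the knockout IP on the right; each point is 1 peak, diamonds are the knockout, and shading marks the last 1000 nt. Over the knockout IP, every control peak in the shaded stretch lies below 0, and every control peak between 10 and 20 kb lies above 0.

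A similar part of the called peaks lay at 3′ ends in every library. The over-input lists of controls 1 to 3 held 4083, 5848 and 4488 peaks there, and the knockout held 6012. Of the gene-strand peaks of eligible genes, these were 3.56%, 4.34% and 4.13% in the controls (4.01% ± 0.41, SD, n = 3) and 4.02% in the knockout. The knockout lay within the range of the controls (exact permutation test over libraries, counting differences in either direction, p = 1; the smallest p that 1 library against 3 can give is 0.25). The windows made up 1.39% of the summed span of the eligible genes, so called peaks were denser there than along the span as a whole. Peaks at 3′ ends were slightly longer than inner peaks, with median lengths of 57, 54 and 49 nt against 53, 50 and 46 nt in the controls, and 46 against 41 nt in the knockout.

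Along the window the number of peaks was highest between 250 and 500 nt from the gene end, at 1202, 1773 and 1295 in the controls and 1704 in the knockout. It then fell with distance, to 622, 834 and 620 in the controls and 729 in the knockout between 4750 and 5000 nt. In the last 100 nt before the gene end, 103, 210 and 173 peaks were called in the controls and 364 in the knockout. This was above all 3 controls, although control 2 had almost as many 3′ end peaks in all.

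**Figure D2:**
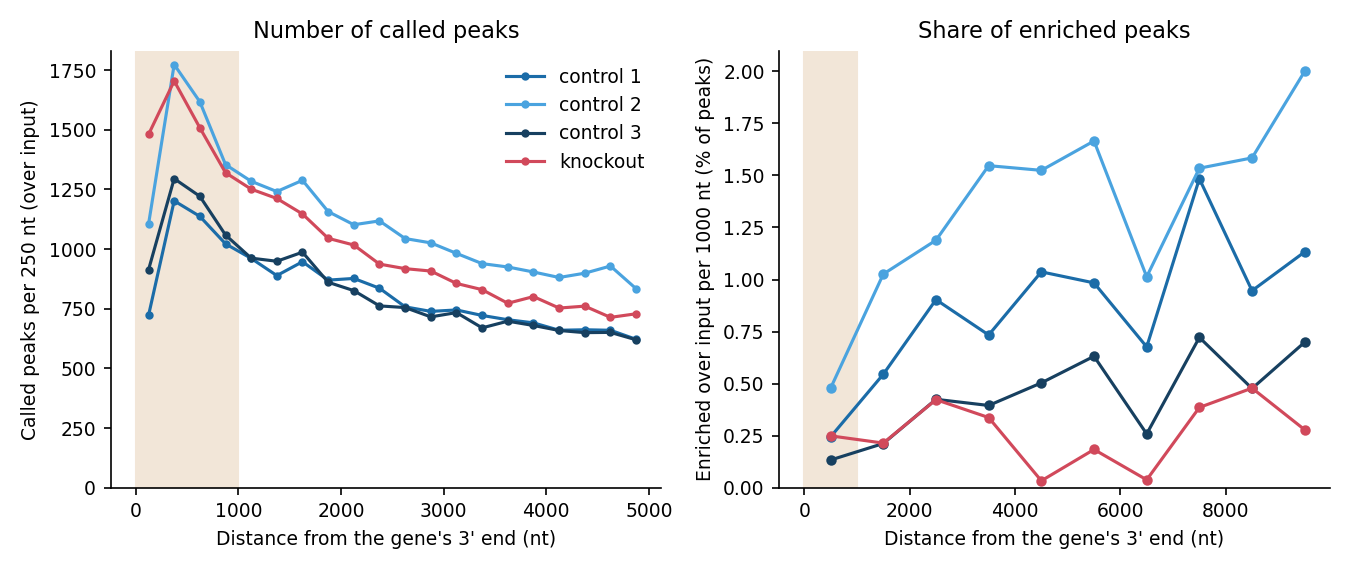
Left, number of called peaks over input per 250 nt against distance from the 3′ end of the gene in nt, 1 line per IP; right, percent of those peaks that were enriched over input (log2 fold and −log10 p of at least 3) per 1000 nt; shading marks the last 1000 nt. Peak number is highest at 250 to 500 nt in every IP, while the enriched share of each control is lowest in the shaded stretch.

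Peaks at 3′ ends of the controls had lower folds than inner peaks, taken over all eligible genes. Over input, the median log2 fold at 3′ ends was 0.64, 0.38 and 0.25 in controls 1 to 3, against 0.90, 0.69 and 0.60 for inner peaks. The 3′ end was lower in each control, by a mean difference of −0.31 ± 0.04 (SD, n = 3). Against inner peaks within 5000 nt of the gene end alone, a comparison added after seeing the data, the mean difference was −0.10. In the knockout both medians were 0.23. Many peaks share 1 exact value in these lists, in the knockout 22.4% of them, so a median can sit on a tie, and means are given as well. The difference of means was −0.36, −0.38 and −0.28 in the controls and −0.08 in the knockout.

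Against the knockout IP the order was the same. The 3′ end medians were 0.79, 0.71 and 0.58, against inner medians of 1.18, 0.88 and 1.17, a mean difference of −0.38 ± 0.21 (SD, n = 3). Taken gene by gene, the median difference was −0.26, −0.26 and −0.28 over the knockout IP, and the 3′ end was the lower in 61.3%, 60.9% and 61.7% of 2488, 3176 and 2609 genes. Over input the gene-by-gene median was −0.14, −0.24 and −0.08 in the controls and 0.00 in the knockout, and the 3′ end was the lower in 54.5%, 60.7% and 51.6% of genes in the controls and in 41.6% in the knockout. Peaks in the first 1000 nt of genes were a further contrast, with medians over input of 0.65, 0.21 and 0.01 in the controls and −0.51 in the knockout. Over input, control 1 was about level between its gene ends, while controls 2 and 3 and the knockout were higher at the 3′ end. Over the knockout IP the 3′ end minus the first 1000 nt gave −0.22, 0.09 and −0.05, with no common direction.

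**Figure D3:**
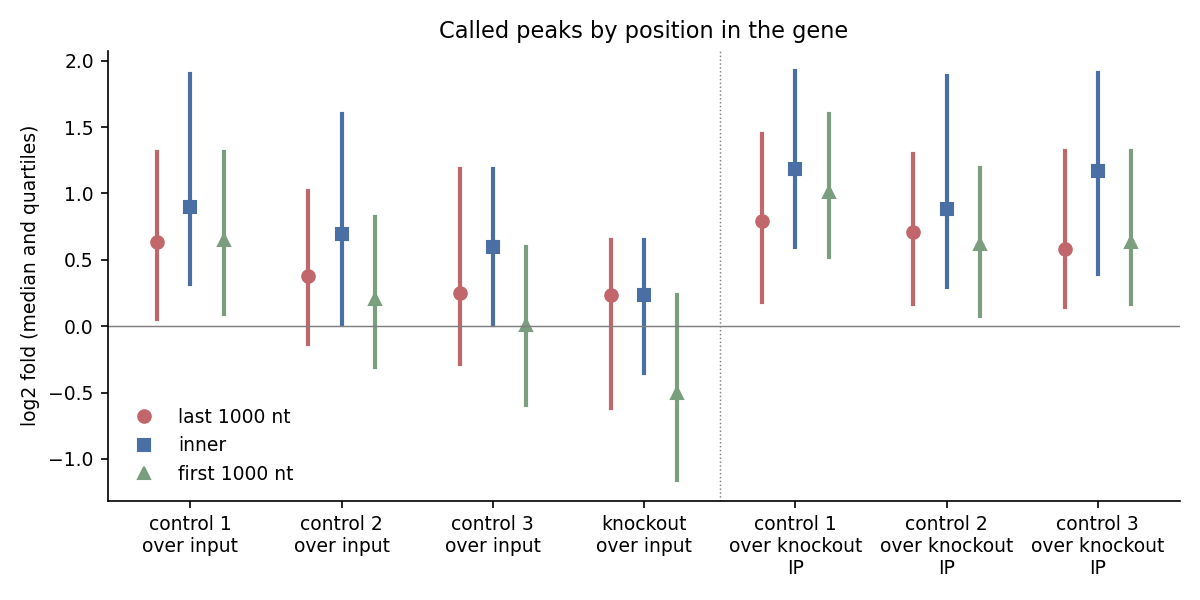
Median (symbol) and quartiles (line) of the log2 fold of called peaks in each of the 7 lists, for the last 1000 nt of genes, inner peaks and the first 1000 nt. In all 3 controls the 3′ end median lies below the inner median against both comparators, and in the knockout over input both coincide at 0.23.

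The rule's limit of 1000 nt did not mark a step. Between 900 and 1000 nt from the gene end, just inside it, the median log2 fold over input was 0.64, 0.43 and 0.18 in the controls and −0.03 in the knockout. Between 1000 and 1100 nt it was 0.73, 0.34 and 0.30 in the controls and 0.06 in the knockout.

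Peaks with both a high fold and a high −log10 p were rare at 3′ ends. The term enriched is used for peaks whose deposited log2 fold and −log10 p both reached 3. Over input, 10 peaks of control 1 were enriched at 3′ ends (0.245%, against 1.02% of all its called peaks), 28 of control 2 (0.479%, against 1.05%) and 6 of control 3 (0.134%, against 0.494%). In the knockout 15 were enriched (0.2495%, against 0.316%). The share at 3′ ends was below that of all peaks in every IP. For inner peaks it was 1.15%, 1.14% and 0.550% in the controls, or 4.68, 2.39 and 4.12 times the 3′ end share, and 0.316% in the knockout, 1.27 times its 3′ end share.

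Over the knockout IP, 15 peaks of control 1 were enriched at 3′ ends (0.367%, against 0.621% of all peaks), 33 of control 2 (0.564%, against 1.09%) and 16 of control 3 (0.357%, against 0.648%). In the first 1000 nt the share over the knockout IP was 0.561%, 0.224% and 0.256%. In each control the enriched share was higher farther from the 3′ end, but it did not rise steadily. Over the knockout IP it was 0.79%, 1.15% and 0.67% between 1000 and 2000 nt, and 1.19%, 1.86% and 1.20% between 4000 and 5000 nt. Between 6000 and 7000 nt it was 0.68%, 1.44% and 0.52%. Over input it reached 1.04%, 1.52% and 0.50% in the controls at 4000 to 5000 nt. The knockout had 1 enriched peak of 2957 there, its lowest share within 10000 nt, against 16 of 3780 between 2000 and 3000 nt.

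Only 2 places at 3′ ends were enriched over both input and the knockout IP in at least 2 controls. Such regions numbered 203 over the whole series, or 0.287% of the 70758 sites called in at least 2 controls. A site is a stretch of overlapping called peaks on 1 strand. At 3′ ends the share was 2 of 3164 sites (0.0632%), in the first 1000 nt 2 of 4905 (0.0408%) and inside genes 179 of 54299 (0.330%). No 3′ end region was supported by all 3 controls, and both rested on controls 1 and 2, so that leaving out either of these left 0.

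The first region lay in Sugp2, which encodes a protein related to splicing factors (chromosome 8, 70262708–70262813, plus strand, 344.5 nt from the gene end). Its log2 folds over input were 3.48, 5.06 and 2.30 in controls 1 to 3, and over the knockout IP 3.18, 3.76 and 2.70. Control 3 lay above both comparators but under the threshold, and no knockout peak was called there. The inner peaks of Sugp2 had medians over the knockout IP of 1.10, 1.62 and 1.24, all below the 3′ end region.

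The second region lay in Atn1, which encodes the transcriptional corepressor atrophin 1 (chromosome 6, 124743458–124743565, minus strand, 967.5 nt from the gene end). Its log2 folds over input were 3.90 in control 1 and 5.10 in control 2, and over the knockout IP 4.18 and 4.38. In control 3 and in the knockout no peak was called in the Atn1 region. Its midpoint lies just inside the 1000 nt limit.

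A further 19 places qualified in 1 control, and 18 of these came from control 2. They lay in 16 genes, and none had a called knockout peak, while 10 had a called peak in all 3 controls. All these places, like the regions in Sugp2 and Atn1, had to be enriched over the knockout IP. Their lack of a knockout call partly follows from that choice. Control 2 thus supplied most of the 3′ end peaks that were enriched against both comparators, 20 against 2 in control 1 and 1 in control 3. It also had the most called peaks of the controls. Over the whole series it had the most enriched peaks as well. These were 1622 over input, against 1319 in control 1 and 604 in control 3. Over the knockout IP they were 1681, against 803 and 793.

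Among the 1116 3′ end sites called in all 3 controls, the median log2 fold over the knockout IP was 0.44, against 0.62 for 16763 inner sites and 0.60 for all 23620 sites. Of these 3′ end sites, 575 (51.5%, against 59.5% of all sites) were above 0 in every control and 152 (13.6%, against 9.33% of all sites) were below 0 in every control, where the 3 lists share the 1 knockout library. In 5 sites (0.448%, against 1.75% of all sites) every control reached a log2 fold of 3. These 5, named after their values were seen, lay in Ccdc136, Dnmt1, Nop14, Smox and Gars, and none had a called knockout peak.

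Dnmt1 encodes the maintenance DNA methyltransferase. At its site (chromosome 9, 20907594–20907707, minus strand) the log2 folds over the knockout IP were 3.69, 5.18 and 4.58 (4.48 ± 0.75, SD, n = 3), and over input 1.59, 3.58 and 3.60. Control 1 was thus well above the knockout IP there but only modestly above its input. At the Ccdc136 site the values were 3.77, 5.32 and 4.49 over the knockout IP and 2.48, 3.38 and 2.50 over input. Nop14, a factor of ribosome assembly, had 3.92, 4.55 and 3.75 over the knockout IP. Smox, which oxidises spermine, had 3.41, 4.20 and 3.90, and Gars, the glycyl-tRNA synthetase, had 3.30, 4.42 and 3.08. The 5 sites were chosen for these values, so their height and their lack of a knockout call partly follow from the choice.

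A high value over the knockout IP did not always come with a high value over input. Lman1, which encodes a cargo receptor of the secretory pathway, had 3.77, 3.62 and 2.90 over the knockout IP but −0.32, −0.12 and −1.54 over input. Stx16, a syntaxin of membrane fusion, had 2.92, 3.47 and 3.28 over the knockout IP and 0.05, 0.28 and −0.51 over input. At the Lman1 site every control was below its own input, at the Stx16 site the controls lay around theirs, and no knockout peak was called at either. Deaf1, which encodes a transcription factor, was high against both, with 3.12, 2.72 and 3.77 over input and 2.41, 3.00 and 3.17 over the knockout IP. Lman1, Stx16 and Deaf1 were named after their values were seen.

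**Figure D4:**
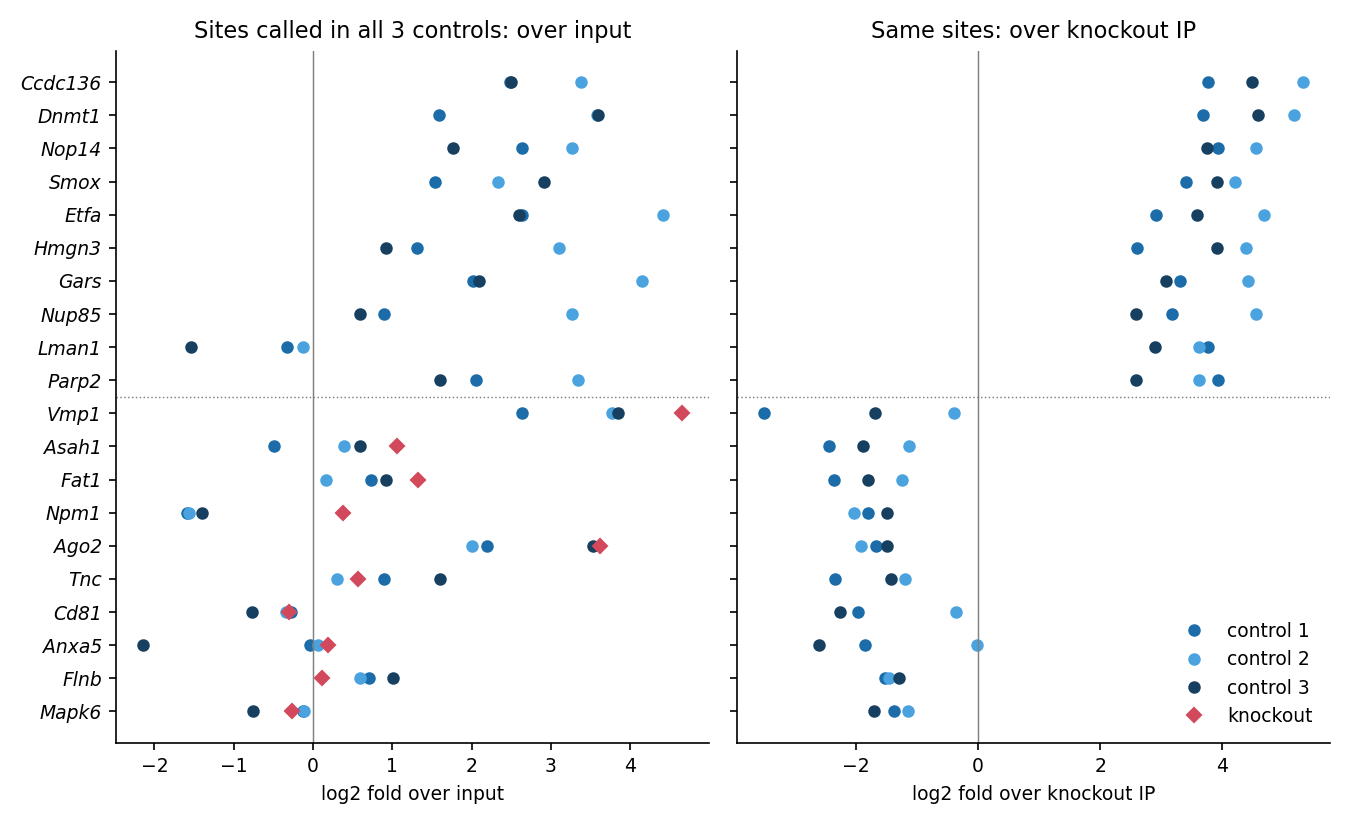
The 10 sites with the highest and 10 of those with the lowest mean log2 fold over the knockout IP among 3′ end sites called in all 3 controls, separated by a dotted line; each point is 1 library, diamonds are the knockout, with log2 fold over input on the left and over the knockout IP on the right. None of the upper 10 sites has a knockout value, and all of the lower 10 shown have one. The sites were ranked by their values over the knockout IP, so this split partly follows from the choice. Lman1 is low over input and high over the knockout IP.

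The gene with the highest single fold over input at a 3′ end, Lars2, was also enriched in the knockout. In Lars2, which encodes the mitochondrial leucyl-tRNA synthetase and was named after its values were seen, single peaks reached 5.90 in control 1, 4.28 in control 2 and 3.54 in control 3, and 3.60 in the knockout. At the Lars2 site 123461803–123461996 on chromosome 9 the values over the knockout IP were 1.02, 0.30 and 0.20, far below the values over input. The regions of Atn1 and Sugp2 had no knockout call, but they had been chosen for being enriched over the knockout IP. Of the 10 enriched peaks of control 1 over input, 3 were overlapped by an enriched knockout peak, as were 3 of 28 in control 2 and 3 of 6 in control 3.

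At the Mir21a site in Vmp1 (86584082–86584146) the log2 folds over input were 2.64, 3.77 and 3.84 in the controls and 4.66 in the knockout. Against the knockout IP they were −3.50, −0.39 and −1.69, below 0 in every control but spread widely. Peaks divided by the mature arms printed above in 2 of the 4 IPs. In control 2 one peak covered 20 of the 22 nt of the 3p arm and the next all 22 nt of the 5p arm, and in the knockout the same division was found. In control 3 a single peak covered both arms and the loop between them, and in control 1 a peak across the loop covered 16 nt of the 3p arm and 2 nt of the 5p arm. MiR-21a was the only microRNA at a 3′ end with a member peak, and the peaks cannot tell its precursor from the Vmp1 transcript.

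Ago2 encodes the Argonaute protein that carries microRNAs to 3′ UTRs. Its 3′ end site (chromosome 15, 73101835–73102024, minus strand) had log2 folds over input of 2.19, 2.01 and 3.54 in the controls and 3.61 in the knockout, and over the knockout IP of −1.66, −1.92 and −1.49. Rbm45, an RNA-binding protein, held the highest enriched 3′ end peak of the knockout, at 4.97. At its site (chromosome 2, 76383244–76383545, plus strand) the values over input were 2.57, 2.34 and 1.94 in the controls and 4.28 in the knockout. Next among the 5 genes with the highest knockout peaks came Vmp1 (4.91), Itgb1, the beta 1 integrin (4.04), and Csnk1e, the kinase casein kinase 1 epsilon (4.005). Ago2 followed at 3.68. Of these genes, Rbm45, Itgb1 and Csnk1e had no enriched 3′ end peak in any control over input.

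Controls and knockout were compared at the 827 3′ end sites called in all 4 IPs. No site differed at an adjusted p under 0.05 in limma with Benjamini-Hochberg adjustment over all 16089 sites called in all 4 IPs, where 0% were called higher and 0% lower. At an unadjusted p under 0.05, 19 of the 827 were higher in the controls (2.30%) and 56 lower (6.77%), against 694 (4.31%) and 787 (4.89%) of all sites. Without centring the balance turned, with 70 higher and 24 lower at 3′ ends and 2045 and 231 over all sites. The median difference, control minus knockout, was −0.22 at 3′ ends and 0.08 over all sites, after each list was centred on its own median. Without centring these medians were 0.36 and 0.66, so the direction at 3′ ends depends on the centring, while their median lay below that of all sites in both. The lone knockout library is assumed to vary like the controls in this test. Without control 2, 1 of the 827 sites passed as higher and 6 as lower, against 37 and 72 of all sites, and without control 1 or control 3 the 3′ end count was 0 each way.

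Sites with a low unadjusted p, named after their values were seen, are given as values. At Npm1, which encodes nucleophosmin, a site 72 nt from the gene end had −1.59, −1.57 and −1.40 over input in the controls and 0.38 in the knockout, and −1.79, −2.02 and −1.49 over the knockout IP. In the other direction, Abcc4, an ABC transporter, had 1.90, 1.60 and 0.60 in the controls and −1.77 in the knockout, a centred difference of 2.56 with a standard error (SE) of 0.67 (limma, adjusted p = 0.398). The groups do not overlap at these sites, yet over the knockout IP Abcc4 had only 0.18, −0.12 and 0.58.

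**Figure D5:**
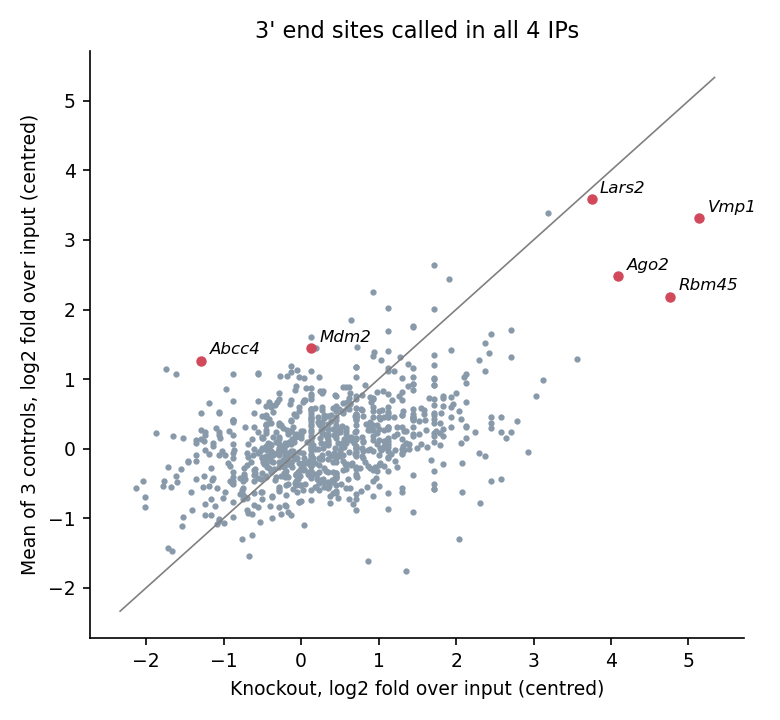
Mean of the 3 controls (y axis) against the knockout (x axis) in log2 fold over input, each list centred on its median, for the 827 3′ end sites called in all 4 IPs; each point is 1 site, the line marks equality, and sites in red are named. Rbm45, Ago2 and Vmp1 lie below the line, Lars2 close to it and Abcc4 above it.

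Sites recurred more often at both gene ends than inside genes. Of 12404 3′ end sites with an over-input call, 7878 (63.5%) were called in 1 IP and 827 (6.67%) in all 4, against 75.6% and 3.31% of inner sites and 51.5% and 16.1% of sites in the first 1000 nt. Of the sites called in all 3 controls, the knockout also had a call in 74.1% at 3′ ends, 64.9% inside genes and 80.1% in the first 1000 nt. Sites called in all 3 controls without a knockout call numbered 289 at 3′ ends (2.33%, against 1.79% inside genes and 4.02% in the first 1000 nt), and 2678 were called in the knockout alone (21.6%, against 25.4%). A gene with more called peaks had more chances to enter: the median was 55 peaks in genes with a member and 48 in all eligible genes.

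The genes with most recurrent 3′ ends were Ldha, Snrnp70 and Stip1, with 4 sites each called in all 4 IPs. Ldha makes the lactate dehydrogenase A subunit, Snrnp70 a core protein of the U1 splicing particle and Stip1 a cochaperone. Aebp1 and Ddx39b followed alphabetically among 23 genes with 3 sites each. Median log2 folds over input at the Ldha 3′ end were 0.08, −0.38 and −0.48 in the controls and −1.32 in the knockout, and over the knockout IP 0.77, 0.71 and 0.78. Those of Snrnp70 were −0.25, 0.16 and −0.33 over input and −0.995 in the knockout, and those over the knockout IP were 0.66, 0.61 and 0.55. Stip1 had −0.02, −0.20 and 0.01 over input and −1.24 in the knockout, and 0.14, −0.09 and 0.19 over the knockout IP. The medians of all 3′ end peaks over the knockout IP were 0.79, 0.71 and 0.58. Ldha and Snrnp70 thus lay near the usual 3′ end value and Stip1 below it. None of the 3′ end peaks of these 3 genes was enriched in any list.

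Zmat3 is a p53 target, and the p53 pathway was followed gene by gene. Mdm2, the ubiquitin ligase that degrades p53, had 1, 6 and 2 called 3′ end peaks in the controls and 10 in the knockout. At the Mdm2 site called in all 4 IPs (chromosome 10, 117689531–117689699, minus strand) the log2 folds over input were 2.20, 0.92 and 1.504 in the controls and −0.35 in the knockout, without overlap. Over the knockout IP the same site had −1.62, −0.23 and −2.15, so the 2 comparators gave opposite directions. The centred difference over input was 1.31 with an SE of 0.66 (limma, adjusted p = 0.585). A knockout peak of Mdm2 next to it, at 117689709–117689744, was enriched over input at 3.02.

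Mdm4, the partner of Mdm2, was eligible and had no called 3′ end peak in any list, although 102 peaks were called in the gene over the 4 over-input lists. Trp53 (p53) had 2, 4 and 1 peaks in the controls and 2 in the knockout. Its site called in all IPs had −0.35, −0.23 and 1.36 over input in the controls and 0.31 in the knockout, which lay inside their range. Cdkn1a, the p53-induced cell cycle inhibitor, and Hras were not eligible because their spans, 9744 and 4086 nt, were under 10 kb.

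Cd44, the hyaluronan receptor, had 0, 3 and 1 3′ end peaks in the controls and 4 in the knockout, one of them enriched over input at 3.60. Ptbp1, a repressor of exon inclusion, had a site with 0.71, 0.65 and −0.27 over input in the controls and −1.77 in the knockout. At a neighbouring Ptbp1 site the controls had 0.56, 0.32 and 0.18 and the knockout 0.85, so 2 sites of 1 gene ran in opposite directions. Vegfa, whose mRNA is known for AU-rich elements, had a site with 1.19, 1.25 and 0.18 over input in the controls and 0.31 in the knockout, and 1.11, 1.25 and 0.53 over the knockout IP. Cltc, the clathrin heavy chain, had 0.80, −0.46 and 1.06 in the controls and 1.31 in the knockout. Thus the knockout lay inside the range of the controls at the Vegfa site and above it at the Cltc site.

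Gene lists were compared with all 4377 genes with a 3′ end peak. Of these genes, 29 had a 3′ end peak enriched over input in a control (0.663%), 40 had one enriched over the knockout IP (0.914%), and 9 had one enriched in the knockout. The median log2 fold over the knockout IP at sites called in all 3 controls was 0.44. Since most lists have few such sites, nothing is read from the differences of their medians.

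Factors that bind 3′ UTRs or act in RNA decay were the largest set, with 48 of 61 genes having a 3′ end peak. Of the 48, 1 was enriched over input, namely Ago2 in control 3, and 0 over the knockout IP, with a median of 0.14 at 19 sites. Msi2, a Musashi protein, had 1.34, 2.00 and 2.17 over the knockout IP. Smg1 (1.39 ± 0.40) and Smg6 (1.23 ± 0.17), both of nonsense-mediated decay, and Tnrc6a (0.54 ± 0.05), a partner of Argonaute, followed (SD, n = 3). Among mRNAs known for AU-rich elements, 6 of 26 genes were eligible and 5 had a 3′ end peak. None of the 5 was enriched, and the rest of the list entered no comparison because most such genes are short or had few peaks. Besides Vegfa, Plaur had a site, at −0.24 ± 0.51.

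Of cleavage and polyadenylation factors, 13 of 19 had a 3′ end peak and 0 were enriched. The 1 site called in all 3 controls lay in Cstf3, a subunit of the cleavage stimulation factor. It had 1.60, 1.88 and 1.90 over the knockout IP and 2.31, 2.60 and 1.92 over input, without a knockout call. Many peaks share exact values in these lists too. The value 1.88 is the most common one of control 2 over the knockout IP (12.8% of its peaks). Closeness of such values is therefore not read as agreement between controls. Of SR proteins and hnRNPs, 29 of 48 had a 3′ end peak. Only Ewsr1, which encodes an RNA-binding protein, had an enriched peak, in control 2 (4.54 over input and 3.82 over the knockout IP). At 17 sites this list had a median of −0.08 over the knockout IP. Rbfox2 was highest at 1.49 ± 0.50, followed by Ptbp3 at 1.16 ± 1.24, Ptbp1 at 0.91 ± 0.50 and Hnrnph1 at 0.51 ± 0.49.

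Of p53 target genes, 14 of 38 had a 3′ end peak and 0 were enriched in a control, with a median of −0.26 at 8 sites. Sesn2, which restrains mTORC1, was highest at 1.37 ± 0.37, then Epha2 at 0.55 ± 0.14, Tnfrsf10b at −0.02 ± 0.73 and Zmat3 at −0.71 ± 0.46. Of regulators of p53, 13 of 27 had a 3′ end peak and 0 were enriched in a control, with a median of 0.14 at 4 sites. Usp10, a deubiquitinase of p53, had 1.04 ± 0.80, Kmt5a 0.16 ± 0.42 and Trp53 0.11 ± 0.34. Mdm2 was in both lists as the 1 gene with an enriched knockout peak. Of Ras, MAPK and PI3K signalling genes, 25 of 44 had a 3′ end peak and 0 were enriched. Nf1, which switches Ras off, had 0.61 ± 0.65, Grb2 −0.24 ± 0.48 and Akt1 −0.36 ± 0.19.

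Of matrix and adhesion genes, 21 of 37 had a 3′ end peak. Of these, 0 were enriched over input and 2, Lamc1 and Itgb5, over the knockout IP, and 2, Itgb1 and Cd44, in the knockout. Lamc1, the laminin gamma 1 chain, had 2.82, 2.26 and 2.67 over the knockout IP but 0.53, 0.48 and 0.01 over input. The enriched Itgb5 peak was one of control 1 (3.18). At another site Itgb5 had 1.05 ± 0.18, while Col4a2 had 1.004 ± 0.32 and Hspg2 0.80 ± 0.07. These 4 were named for their high values, and the median of the whole list was 0.13 at 18 sites. Of actin cytoskeleton and focal adhesion genes, 29 of 44 had a 3′ end peak and 0 were enriched, with a median of −0.15. Vcl (vinculin) had 1.57 ± 0.36, Tpm1 1.23 ± 0.33, Flnc 0.95 ± 0.25 and Actn1 0.65 ± 0.61. These genes too were named for their high values over the knockout IP. At these sites Flnc and Actn1 each averaged −0.28 over input. A different Actn1 site, 302 nt from the gene end, had −1.90, −0.29 and −1.53 over the knockout IP. Of cell cycle genes, 26 of 45 had a 3′ end peak and 0 were enriched, with a median of 0.49. Cenpe, a kinetochore motor, had 1.90 ± 0.02, Top2a 1.39 ± 0.17, Mcm6 0.80 ± 0.38 and Mcm3 0.75 ± 0.42. The Cenpe values, 1.92, 1.88 and 1.90, are also the upper quartiles of all inner peaks in these lists. Its small SD is therefore not read as close agreement.

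The cell type could be checked only in part. Of 14 fibroblast markers, 5 had 10 or more called peaks anywhere in their span and 7 had 0, among them the collagens Col1a1 and Col1a2. Fn1 (282 peaks), Prrx1 (77) and Vim (67) had most, and peaks sample bound or abundant RNA, not expression as such. Of 21 markers of other cell types, 15 had 0 called peaks and Epcam alone had 10 or more, at 35. At 3′ ends, 3 fibroblast markers had members and none was enriched. A Fn1 site had −0.17, 0.02 and −0.18 over input in the controls and 0.54 in the knockout, and −1.60, −1.24 and −1.07 over the knockout IP. The Epcam site had 1.04, −0.07 and 1.501 over the knockout IP. In such bulk libraries fewer bound RNAs and less of the RNA cannot be told apart, and whether RNA levels differ between the lines was not tested.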

How the data were processed

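Of 8 samples (4 IPs and their 4 inputs), each IP had lists deposited by the authors and the inputs had none. The lists have no header: the comparator was taken from the list names and the units from the numbers themselves. Each peak carries a −log10 p-value, deposited by the authors, capped at 400 and 0 wherever the fold is negative, and a log2 fold deposited by the authors. The build is mm10, per the submitters' processing notes. The sources used here name no aligner or peak caller and do not say how duplicates were handled. Gene spans came from RefSeq (GRCm38.p6). The majority strand was the same as in the RefSeq promoter table for 5135 of 5145 genes. Coordinates are 1-based.

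Members of several spans went to the gene with the nearest 3′ end. All 978429 peaks were merged by strand (overlap of at least 1 nt) into sites; a site's value is the length-weighted mean log2 fold. Sites called in all 4 over-input lists were compared with limma 3.58.1 in R 4.3.3 (control minus knockout, lists centred on their medians). This step was tested on simulated data. Other steps used Python 3.11.15 and pandas 2.3.3. The labels do not say that the control lines are independent lines beyond their guides, so p-values measure only the spread between these libraries.

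Members, gene lists and tests were chosen with earlier results of these data known. Named genes were 10 fixed ones, those of regions, those past the limma threshold, the 5 with most sites in all IPs, the 5 with the highest enriched knockout peaks, and up to 4 per list by highest mean over the knockout IP. Alternatives are listed in the closing section. One site with a low value over the knockout IP is not reported here.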

Additional observations from a re-analysis of the deposited data

How the results depend on the processing

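Read depth is unknown, the last 1000 nt are a proxy for the 3′ UTR, and how peaks without comparator reads were treated is not known, which bears on the highest folds over the knockout IP. No paired analysis was possible because the inputs have no lists of their own and the knockout has 1 library. Of 94 planned and 10 added values, 70 and 7 moved by less than the spread between replicates or, for counts, by at most 1.5 times, and none reversed. The limma values among them were numbers of sites past the adjusted threshold, so the turn without centring described above does not enter. With windows of 500 nt and 2000 nt the share of gene-strand peaks was 1.95% and 7.46% in the controls and 2.13% and 7.13% in the knockout, as their width sets, with 1 and 9 regions, and at 2000 nt 0.632% were enriched over the knockout IP. With spans of at least 20 kb the share was 3.17% (knockout 3.15%), the difference from inner peaks over input −0.25, and the number of regions 1. With genes that overlap no other protein-coding span it was 1. At a log2 fold of at least 2, 0.726% were enriched over the knockout IP. At a log2 fold of at least 4, the enriched share was 0.0790% against input, 0.159% against the knockout IP and 0.0832% in the knockout, with 0 regions. At a −log10 p of at least 5, 0.166% were enriched over the knockout IP, with 0 regions, and support by all 3 controls gave 0. Leaving out 1 control gave 0 to 2 regions (0 without control 1 or control 2), 0 to 1 sites higher and 0 to 6 lower in limma (1 and 6 without control 2), 3.84% to 4.24% of peaks at 3′ ends, differences of −0.33 to −0.29 over input and −0.49 to −0.28 over the knockout IP, and 0.189% to 0.362% and 0.362% to 0.466% enriched. Alternatives chosen after seeing the data moved the difference over input to −0.10 with inner peaks within 5000 nt of the gene end, to −0.25 in the 1419 genes with a 3′ end peak in all 7 lists, and to −0.15 gene by gene.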

Other observations

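Several genes outside the lists had 3′ end peaks enriched over the knockout IP. Rpa1, a subunit of the single-stranded DNA binding complex, had 5 enriched 3′ end peaks over the knockout IP in control 2 and 1 in control 1, and a called knockout peak overlapped 2 of the 5. Genes enriched over the knockout IP at a 3′ end in 1 control only included the interferon-induced genes Ifi44 (4.98) and Oasl2 (4.04), both in control 3, and Nsl1 (4.85) in control 1. Over input the same controls had only 0.67 at Ifi44, 0.73 at Oasl2 and 1.76 at Nsl1. Control 1 had 3.41 over the knockout IP at the Ifi44 peak, without counting as enriched. These genes were picked after their values were seen.

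Genes whose 3′ end lay above their interior over the knockout IP were fewer than the reverse: of 1329 genes, 125 had a positive difference in all 3 controls and 519 a negative one. Ccdc136 had the largest at 2.86 ± 0.66 (SD, n = 3), followed by Smox at 2.74 ± 0.62, Etfa at 2.50 ± 0.89 and Spred2, an inhibitor of Ras signalling, at 2.01 ± 0.63. On the opposite strand, 570 peaks were called in the last 1000 nt over the 7 lists.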
